A study of Sorghum bicolor with 14 samples.

Results

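A set of 254 loci stood higher in the stem internode of pot-grown, water-deprived sorghum than at any of 4 stages of field-grown plants. The loci were chosen by their measured values in all 7 groups of the study. A locus belongs to the set if its lowest level in the 3 drought groups was at least 1 log2 unit, or 2 times on the FPKM + 1 scale, above its highest level in the 4 development groups. Levels are given in FPKM, a fragment count scaled by transcript length in kilobases and by each 1000000 mapped fragments, and differences on the scale of log2(FPKM + 1), which understates the differences of low loci. The rule could be applied to 26825 loci that carry the same annotation IDs over the same range in both deposited tables, one of 34755 loci for development and one of 32726 for drought.

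All plants were Sorghum bicolor of the grain variety M35-1, and RNA was taken from the middle internode of the stem. The field groups were sampled early, at floral initiation, then at booting, when the panicle swells within the flag leaf sheath, and finally while the grain fills, at milky stage and at soft dough. The drought groups grew as 1 plant per pot, lost their water supply from the flag leaf stage, and were harvested at booting at soil moisture readings near 13% (D1), 7% (D2) and 2% (D3). Each group had 2 libraries, and its single value per locus is the authors' pooled one. The sources used here do not say how many plants went into a library. No watered pot group was analysed here, and the tables were normalized separately, so withheld water, growth in a pot and the table cannot be told apart in any level set across them. With 1 pooled value per group there is no error, no replicate check and no test for any value below. The depth is unknown.

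Sorghum is a cereal that keeps growing on little water, and M35-1 is a variety of the Indian post-rainy season, which ripens on stored soil moisture. When plant tissue dries, the hormone abscisic acid builds up, and genes for protective proteins, for the synthesis of compatible solutes and for the closing of stomata are switched on. The internode is at the same time the tissue that stores sugar in its pith and builds lignified walls around its vessels. None of these roles can be assigned to single loci here: 0 of the 34129 different IDs in the tables matched the RefSeq gene table of the assembly Sorghum_bicolor_NCBIv3, which lists other identifiers. The 23 lists of gene products fixed for the comparison, the markers of leaf and panicle tissue among them, therefore had no members found and were not run. The labelled tissue could not be checked against its markers for the same reason. Loci are named by their IDs, with positions as the files give them, as the sources used here name no genome build.

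The 254 loci made up 1.82% of the 13949 shared loci that reached 1 FPKM in at least 1 group. The opposite set, with all drought groups at least 1 log2 unit below all development groups, held 189 loci or 1.35%. Which of the 2 sets is larger depended on the scaling, as given below. Both are the ends of a continuous distribution. At a difference of 1.5 times, 667 loci were higher and 398 lower in all drought groups, at 4 times 23 were higher and 37 lower, and at 8 times 5 were higher and 6 lower. Within 0.25 log2 units of the threshold, 119 loci lay inside and 194 outside. Sobic.001G054800 (chromosome 1, 4083840 to 4085256) was the last locus with 1 ID and at least 5 FPKM to enter, with 41.7 FPKM in its highest development group and 84.5 in its lowest drought group. Sobic.001G264300 (chromosome 1, 49038182 to 49039230) was the first to miss, with 4.39 and 9.76 FPKM.

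**Figure D1:**
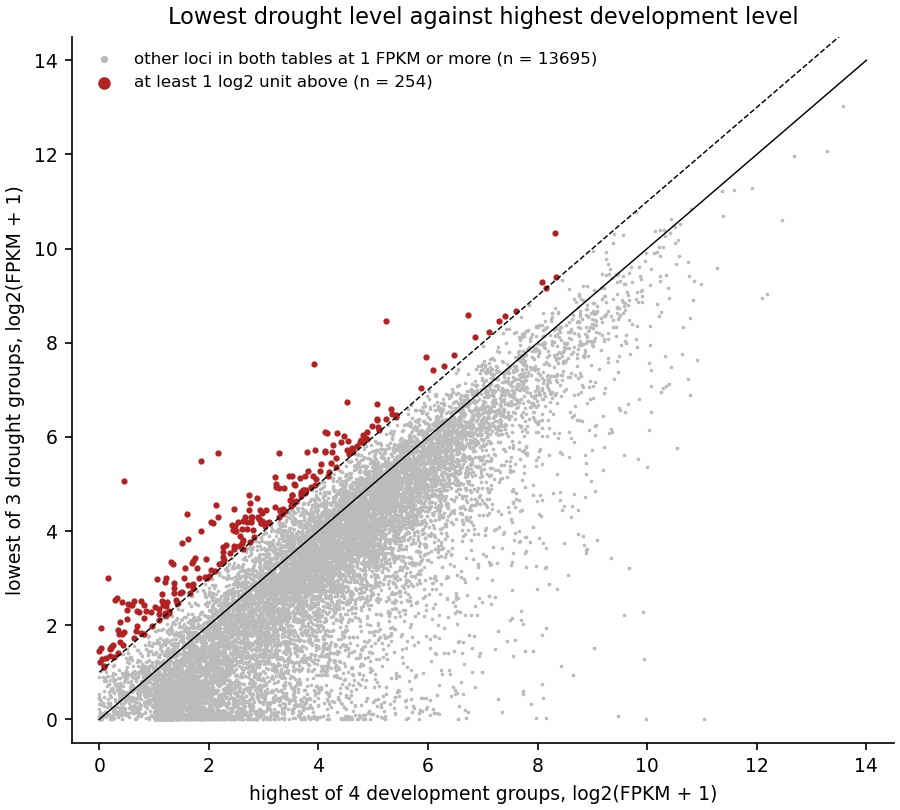
Each point is 1 of 13949 loci, placed by its highest level in the 4 development groups (x axis) and its lowest level in the 3 drought groups (y axis), both as log2(FPKM + 1). The solid line marks equal levels and the dashed line 1 log2 unit above; the 254 red loci on or above the dashed line form the edge of the cloud rather than a separate group.

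The lowest drought value ran from 1.14 to 1278 FPKM over the set. In the field the medians were 3.11 FPKM (floral initiation), 3.56 (booting), 3.90 (milky stage) and 3.02 (soft dough). In the pots they were 21.2 FPKM (D1), 23.1 (D2) and 18.3 (D3). The median difference between the lowest drought and the highest development group was 1.27 log2 units, and the ratio of these FPKM values had a median of 2.97. Compared with field booting, the stage at which the pots were harvested, the median difference was 2.10 log2 units at D1, 2.15 at D2 and 1.83 at D3. Over all shared loci at 1 FPKM or more in the higher of the 2 groups compared, the medians were 0.08, 0.09 and 0.10. The rule asks for at least 1 log2 unit above booting at every locus of the set, so this gap was fixed by the selection.

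A first class of 46 loci was under 1 FPKM at every stage in the field. Its median was between 0.0993 FPKM (floral initiation) and 0.175 FPKM (booting) in the field, and 4.60, 4.58 and 3.97 FPKM at D1, D2 and D3. These loci were therefore nearly silent in the field and mostly low in the pots as well, the lowest drought value running from 1.14 to 32.3 FPKM. Over the whole set, 15 loci were listed at 0 in at least 1 development group, and Sobic.006G106700 was listed at 0 in all 4. A second class of 120 loci had 1 to 10 FPKM in its highest development group, with medians between 2.21 and 2.65 FPKM in the field and 17.4, 18.7 and 14.6 FPKM at D1, D2 and D3. The remaining 88 loci had 10 FPKM or more in the field already, and their medians were 14.4, 16.6, 14.8 and 14.5 FPKM over the stages and 71.8, 71.3 and 56.7 FPKM along the drying. Their difference was smaller, with a median FPKM ratio of 2.33 against 3.03 in the second class. The rule bears on these ratios, since on the FPKM + 1 scale a lower locus needs a larger FPKM ratio to enter.

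**Figure D2:**
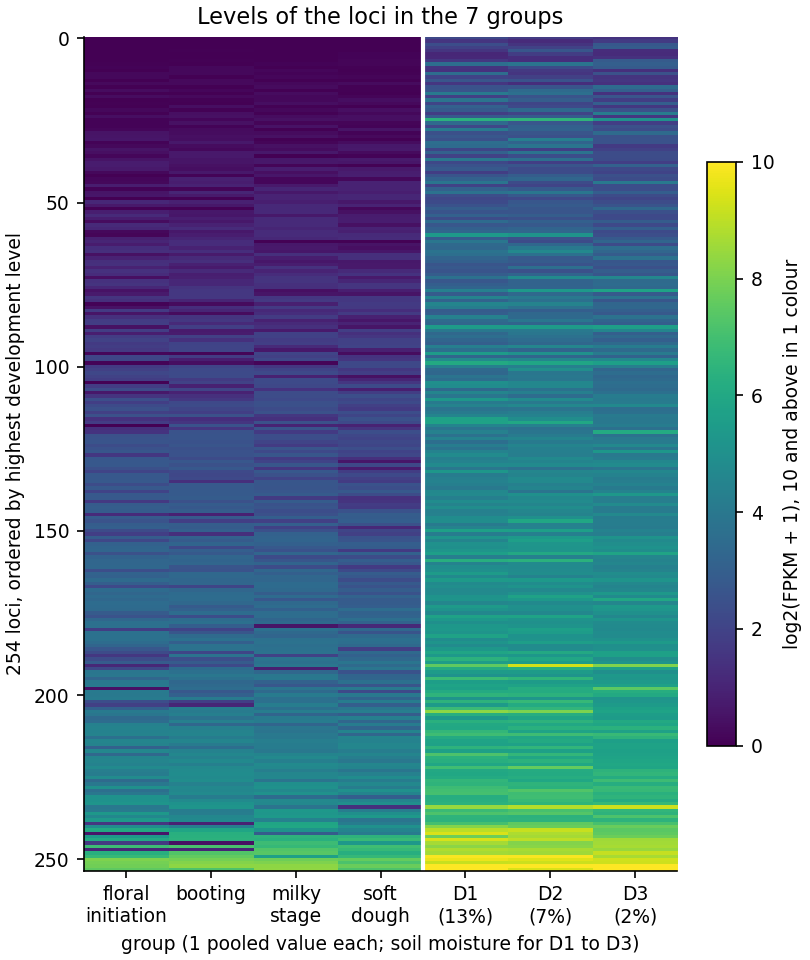
Levels of the 254 loci (rows, ordered by their highest development level) in the 7 groups (columns), as log2(FPKM + 1) with 1 pooled value per group; the white line parts the development table from the drought table. The first 46 rows are under 1 FPKM in every development group, and the colour step at the white line runs through all rows because the rule asks for it.

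At 5 loci the difference reached 3 log2 units, or 8 times on the FPKM + 1 scale. Sobic.002G141800 (chromosome 2, 23093097 to 23093995) had the largest, with 0.0816, 0.122, 0.362 and 0.329 FPKM along the field stages, in their order, and 82.7, 91.3 and 32.3 FPKM at D1, D2 and D3. It was nearly silent in the field and above the medians of the set in all drought groups, a log2 difference of 4.61. Sobic.004G163100 (chromosome 4, 51224783 to 51237123) had 0.363, 2.61, 1.61 and 0.484 FPKM along the stages and 44.5, 44.2 and 48.6 FPKM along the drying, and so was even across the drought groups. Its range holds 2 loci in each table, between which fragments may have been divided. Sobic.003G397400 (chromosome 3, 70714984 to 70715693) had 1.18, 3.62, 14.2 and 10.1 FPKM in the field and 187, 641 and 276 FPKM in the pots. It was highest at D2, and in the field the grain filling stages stood above the earlier ones. Sobic.001G235800 (chromosome 1, 23776333 to 23778039) had 0.0789, 0.300, 0.107 and 3.46 FPKM along the stages and 66.4, 58.4 and 49.2 FPKM along the drying. Soft dough was the field group nearest to the pots there. Sobic.010G246700 (chromosome 10, 58679151 to 58680848) had 15.2, 36.6, 13.6 and 1.59 FPKM in the field and 349, 472 and 602 FPKM in the pots. It was the one of the 5 that was both high in the field before grain filling and higher with each step of drying.

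Of the 254, 19 had at least 100 FPKM in each drought group, and their median difference was 1.27 log2 units, as in the whole set. Sobic.008G161700 (chromosome 8, 59567395 to 59571203) was the highest, with 224, 317, 312 and 208 FPKM along the stages and 1278, 1767 and 1495 FPKM at D1, D2 and D3, a log2 difference of 2.01. Sobic.006G242000 (chromosome 6, 58267484 to 58271445) followed among the loci with 1 ID, with 269.9, 242, 224 and 200.3 FPKM in the field and 833, 724 and 623 FPKM in the pots, a log2 difference of 1.20. Both varied by less than 2 times across the stages and across the pots.

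**Figure D3:**
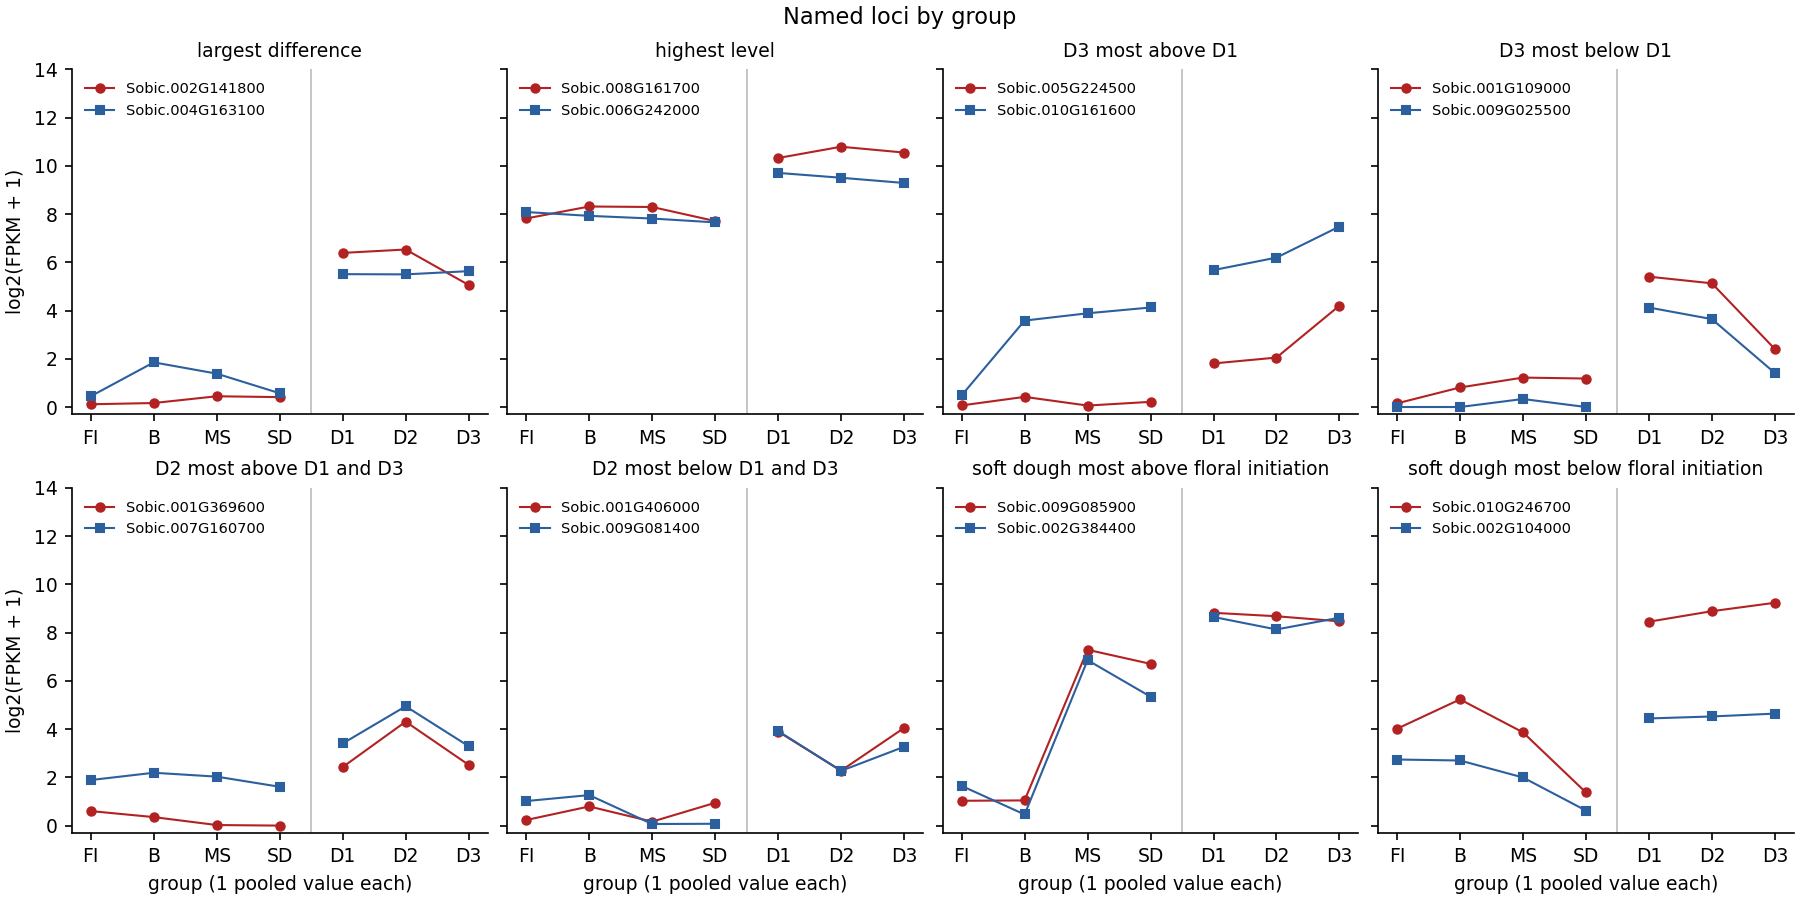
Levels of 16 loci of the set as log2(FPKM + 1) in the field groups FI (floral initiation), B (booting), MS (milky stage) and SD (soft dough) and the drought groups D1, D2 and D3, 1 pooled value per point and 2 loci per panel; the grey line parts the separately normalized tables. The loci share a step up at the grey line, which the rule fixed, and differ in their course on either side of it.

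Most loci of the set were even across the drought groups, but a smaller share than among all shared loci. No contrast between D1, D2 and D3 reached 1 log2 unit at 195 of the 254 loci (76.8%), against 82.5% of the 12693 shared loci at 1 FPKM or more in a drought group. Such a contrast was called by size alone, with at least 1 FPKM in the higher group. These contrasts lie within 1 table, but the rule bears on them, since a locus low in any drought group could not enter.

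From D1 to D2, 8 loci were called higher and 3 lower, or 3.15% and 1.18% of the set, where the background over all shared loci was 1.09% higher and 4.99% lower. The median difference was 0.06 log2 units in the set and -0.01 over all. From D2 to D3, 8 loci were higher and 32 lower, which is 3.15% and 12.6% of the set against 5.91% and 5.05% of all shared loci. The median difference was -0.24 log2 units in the set and -0.01 over all. From D1 to D3, 7 were higher and 35 lower, or 2.76% and 13.8%, against 3.68% and 8.14%. The driest group was the lowest of the 3 at 141 loci (55.5%), D1 at 70 and D2 at 43, where over all 13949 loci D3 was the lowest at 36.3%. D2 was the highest at 106 loci (41.7%), against 29.6% of all. The 2 sets are not alike, since only 12693 of the 13949 loci reached 1 FPKM in a drought group. Where groups tied, the earlier one was taken, here and in the shares of stages below. No p-value can be given for these shares.

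**Figure D4:**
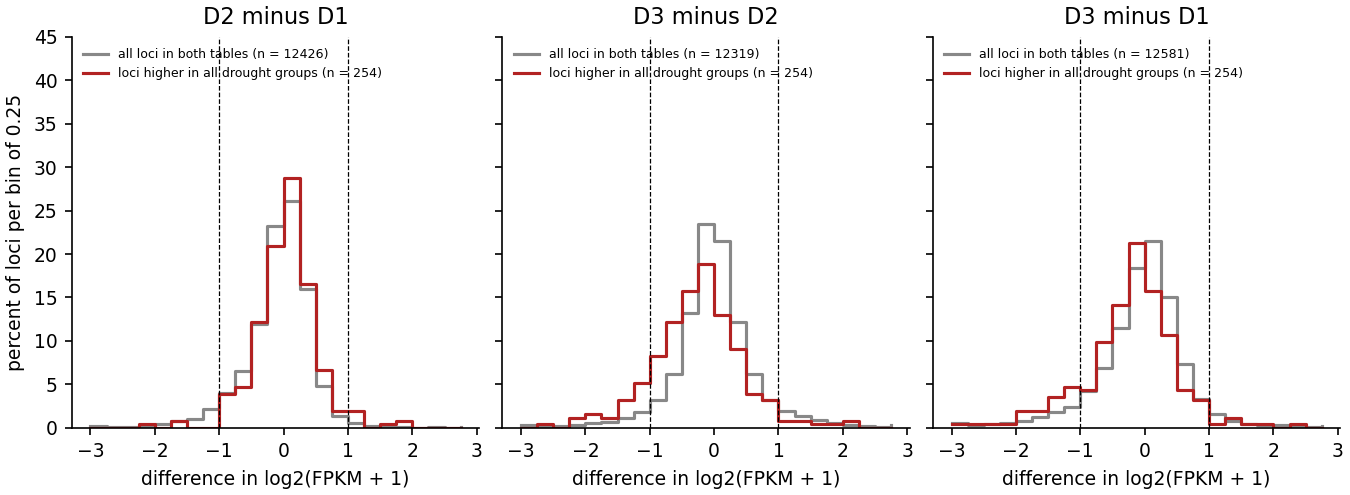
Differences in log2(FPKM + 1) between drought groups, as the percent of loci per bin of 0.25 log2 units, for the 254 loci (red) and for all shared loci at 1 FPKM or more in the higher group (grey); the outermost bins also hold larger differences and dashed lines mark 1 log2 unit either way. The red curve lies close to the grey one for D2 minus D1 and to its left for D3 minus D2, where the medians are -0.24 and -0.01.

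By the course over the 3 readings, 59 loci spanned at least 1 log2 unit. Of these, 5 were higher at each step of drying, or 1.97% of the 254 against 1.56% of the 12693 shared loci. Another 23 were lower at each step (9.06% against 6.02%). A further 23 were highest at D2 (9.06% against 3.11%) and 8 were lowest at D2 (3.15% against 6.81%). Sobic.005G224500 (chromosome 5, 71134603 to 71142614) was the locus with the largest difference upward from D1 to D3, with 2.50, 3.14 and 17.4 FPKM at D1, D2 and D3 and at most 0.338 FPKM in the field. The difference of 2.40 log2 units came almost wholly with the last step. Sobic.010G161600 (chromosome 10, 47838812 to 47853663) had 50.1, 72.1 and 178 FPKM along the drying, after 0.397, 10.98, 13.8 and 16.4 FPKM along the stages, and was the one named locus with steady courses upward in both tables. Downward, Sobic.001G109000 (chromosome 1, 8461062 to 8462148) had 41.3, 33.9 and 4.29 FPKM at D1, D2 and D3, and 0.111 to 1.33 FPKM in the field. Sobic.009G025500 (chromosome 9, 2266363 to 2267165) had 16.4, 11.5 and 1.66 FPKM, and was listed at 0 in the field except for 0.259 FPKM at milky stage. At both loci D1 and D2 were close, and D3 was several times lower yet still above the field.

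The middle reading stood apart at a few loci. Sobic.001G369600 (chromosome 1, 65822984 to 65828764) had 4.38, 18.8 and 4.73 FPKM at D1, D2 and D3, with at most 0.517 FPKM in the field. Sobic.007G160700 (chromosome 7, 59554477 to 59559414) had 9.58, 29.8 and 8.79 FPKM, with 2.05 to 3.57 FPKM in the field. In both, D1 and D3 were nearly equal and D2 was well above them. The opposite course was seen at Sobic.001G406000 (chromosome 1, 69042829 to 69044945), with 13.9, 3.85 and 15.5 FPKM, and, less so, at Sobic.009G081400 (chromosome 9, 11600491 to 11602419), with 14.1, 3.82 and 8.62 FPKM.

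Leaving out 1 group shows which of them limits the set. Without D3 the rule was met by 502 loci, about as many again as the 254. The 248 added loci had medians of 23.6 FPKM (D1) and 22.6 (D2), but 8.43 in D3, where the field medians ran from 3.40 to 4.48 FPKM. These medians restate the selection, which asks for high values at D1 and D2 and a failure at D3. Without D1 there were 301 loci and without D2 305. Among the development groups, 310 loci met the rule without floral initiation, 353 without booting, 352 without milky stage and 287 without soft dough.

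**Figure D5:**
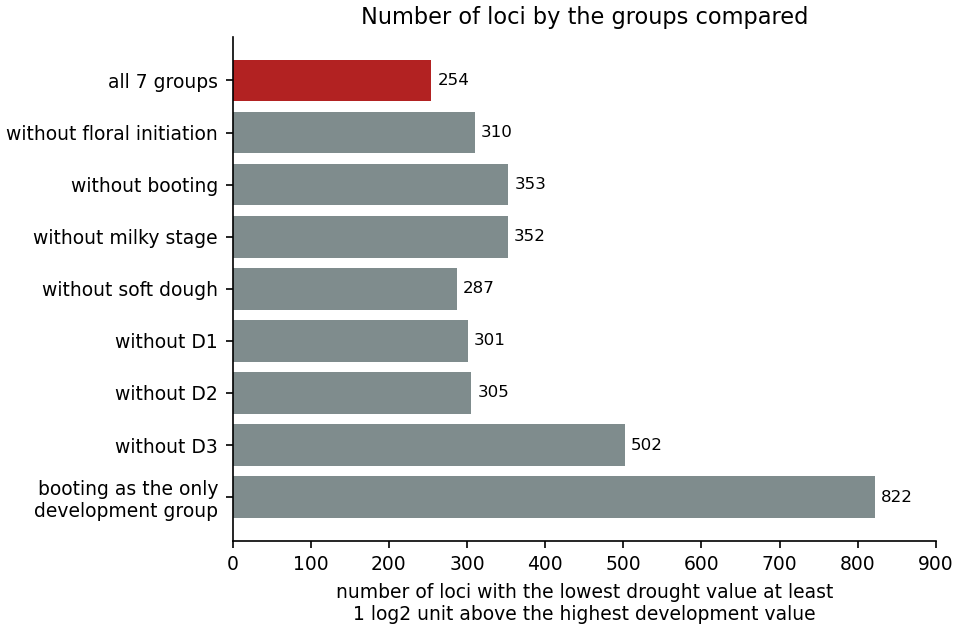
Number of loci (bar length) whose lowest drought value lay at least 1 log2 unit above their highest development value, with all 7 groups (red), with 1 group left out, and with booting as the only development group (grey). Leaving out D3 gives 502 loci and booting alone 822, while each other omission gives 287 to 353.

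The pots were harvested at booting, and field booting alone gives a wider set. All 3 drought groups were at least 1 log2 unit above booting at 822 loci (5.89% of shared loci at 1 FPKM or more), and the 254 are 30.9% of these. The other 568 came within 1 log2 unit of the lowest drought value, or above it, at another stage: 454 at milky stage, 388 at soft dough and 223 at floral initiation, with some counted at several stages. Milky stage was the highest of these 3 stages at 299 of the 568 loci (52.6%), soft dough at 176 (31.0%) and floral initiation at 93 (16.4%), where the shares over the 13949 loci were 31.7%, 30.0% and 38.3%. The 568 were selected for a low value at booting, so these shares are a description. The medians of the 568 over the field stages were 5.54, 4.38, 10.6 and 9.57 FPKM, and in the pots 20.1, 19.6 and 18.2 FPKM.

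Along development, no stage was the highest field group at most loci of the set. Milky stage was the highest field group at 74 loci (29.1%, against 25.6% of the 13949 loci) and booting at 66 (26.0%, against 23.9%). Floral initiation was the highest at 64 (25.2%, against 23.6%) and soft dough at 50 (19.7%, against 26.9%). The titles of the drought and floral initiation libraries end in 1 and those of the other stages in 2, with no meaning given in the labels. From floral initiation to booting, 15 of 189 loci at 1 FPKM or more were called higher and 9 lower (7.94% and 4.76%, background 5.5% and 3.5%). From booting to milky stage, 26 of 201 were higher and 16 lower (12.9% and 7.96%, background 10.5% and 14.1%). From milky stage to soft dough, 7 of 193 were higher and 16 lower (3.63% and 8.29%, background 7.4% and 4.01%). Over the whole span from floral initiation to soft dough, 28 of 192 were higher and 25 lower (14.6% and 13.0%), close to the background of 15.5% and 13.8%. The median difference from floral initiation to booting was 0.00 log2 units in the set and 0.05 over all shared loci. From booting to milky stage it was 0.01 and 0.00. From milky stage to soft dough it was -0.27 and -0.03, and over the whole span -0.20 and 0.06.

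The 2 largest differences upward from floral initiation to soft dough were at loci with over 100 FPKM in each drought group. Sobic.009G085900 (chromosome 9, 14570382 to 14573259) had 1.04, 1.06, 155 and 103 FPKM over the 4 stages and 451, 408 and 353 FPKM in the pots. Sobic.002G384400 (chromosome 2, 73966176 to 73967637) had 2.13, 0.376, 115 and 39.6 FPKM along the stages and 399.9, 279 and 392 FPKM in the pots. Both were low at field booting, high in pots harvested at the same stage, and between these levels during grain filling. The reverse was seen at Sobic.002G104000 (chromosome 2, 12248989 to 12249930), with 5.67, 5.49, 2.99 and 0.541 FPKM along the stages and 20.7, 22.0 and 24.0 FPKM in the pots, and at Sobic.010G246700, given above.

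The loci lay on all 10 chromosomes. Their share of the shared loci at 1 FPKM or more ran from 1.25% on chromosome 5 (8 of 638) to 2.38% on chromosome 2 (42 of 1768), with 54 loci on chromosome 1. The ranges of shared loci at 1 FPKM or more, 13372 in all, were put in order. Other loci may therefore lie between neighbours in this order. How many pairs would arise without any clustering was not tested. No run of 3 or more neighbouring ranges held loci of the set, and 5 pairs of neighbouring ranges did. They are named here because they were few, after their values were seen. On chromosome 1, Sobic.001G109000, given above, was followed by Sobic.001G109500 (8496424 to 8508054), with 13.1, 18.8 and 14.3 FPKM at D1, D2 and D3 and 4.24 to 5.17 FPKM in the field. Only the first was several times lower at D3 than at D1. On chromosome 2, Sobic.002G215300 (60727280 to 60731035) had 22.1, 19.8 and 17.2 FPKM in the pots and at most 4.78 FPKM in the field, and Sobic.002G215700 (60774858 to 60786533) had 119.9, 198 and 57.95 FPKM and 21.5 to 26.6 FPKM. Further along chromosome 2, Sobic.002G367000 (72661801 to 72663352) had 13.4, 6.75 and 2.51 FPKM at D1, D2 and D3 and at most 0.279 FPKM in the field, while its neighbour Sobic.002G367100 (72683937 to 72687311) had 130.2, 118 and 80.7 FPKM and 14.6 to 32.7 FPKM in the field. Both were lower at each step of drying. On chromosome 4, Sobic.004G252600 (59862688 to 59863198) had 70.3, 77.8 and 51.8 FPKM, and Sobic.004G252800 (59874798 to 59876176) 5.09, 4.50 and 6.69 FPKM. On chromosome 6, Sobic.006G106700 (47641061 to 47643877) had 3.55, 2.30 and 1.75 FPKM in the pots, and Sobic.006G106800 (47644264 to 47645008) 25.8, 20.6 and 25.3 FPKM. Besides these, Sobic.003G328100 and Sobic.003G328200 share 1 range (chromosome 3, 65363815 to 65366595), the former with 73.2, 122 and 90.3 FPKM in the pots and the latter with 20.4, 25.2 and 18.6 FPKM. Whether the loci of a pair are separate transcripts was not tested.

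The ranges of the set were somewhat shorter than the rest, with a median of 3323 bp against 4059 bp over the 13949 loci. Of the 254, 243 carried 1 ID and 11 several, and 38 (15.0%) shared their range with another locus, as did 12.4% of the 13949. Outside the set, the locus with 1 ID and at least 5 FPKM whose levels followed the mean pattern of the 254 most closely was Sobic.004G327400, with a Pearson r of 0.99 over the 7 pooled values. It had 14.9 to 16.2 FPKM in the field and 27.4 to 28.7 FPKM in the pots, the same step at a smaller size. Its range holds 3 loci in each table. The rule fixed the step in the mean pattern, so an r this high shows little beyond a step.

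The scale set how many loci entered. As deposited, the median of all shared loci was 0.13, 0.14 and 0.12 log2 units above floral initiation at D1, D2 and D3, and median-of-ratios size factors, which brought these medians to 0.00, 0.04 and 0.00, gave 205 loci, all among the 254. With 5 FPKM added before the log in place of 1, 106 loci met the rule, all among the 254.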

How the data were processed

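A stranded kit for total RNA was used for the 14 libraries of 7 groups, per the labels' protocols. The authors deposited FPKM values, as the column names say, in 1 column per group and 2 tables. As the labels of a group's 2 libraries point to 1 column, it was read as pooled. HISAT2 2.0.5, Bowtie2 2.2.9, cutadapt 1.8.1 and Cuffdiff are named, with no role, per the submitters' processing notes. Whether counting used strand was not stated in the sources used here, so overlapping loci on opposite strands may share fragments. Library totals were not used here and the depth is unknown.

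Loci were joined where ID and range were equal in both tables and the ID occurred once in each. Differences used log2(FPKM + 1) and the calls a size of 1 log2 unit, with at least 1 FPKM in the higher group for contrasts of 2 groups; Python 3.11.15, pandas 2.3.3 and numpy 2.4.6 were used. The selection code was tried on simulated flat loci with planted differences larger than the threshold. This checks only the code, and does not cover replicate variation, low loci or the separate normalization of the real data. The loci and lists were chosen with earlier results of these data known. As no reference named the IDs, at most 2 were named per pattern among loci that carry 1 ID and reach 5 FPKM in a drought group, by the largest difference, level or contrast. The 5 largest differences, the neighbouring pairs and the patterns "lowest at D2" and soft dough against floral initiation were added after seeing the values. Promoter motifs were not searched, as no sequences were used here. Alternatives were other pseudocounts, filters, scalings and sizes, shared ranges or zeros left out, and groups left out.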

Additional observations from a re-analysis of the deposited data

How the results depend on the processing

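No paired analysis was possible because each group has 1 pooled column with no replicate number, and for the same reason no library could be left out. The number of higher loci, 254 as reported, became 106 with a pseudocount of 5, 667 at a size of 1.5 times, 23 at 4 times, 822 against booting only and 502 without D3. That of lower loci, 189 as reported, became 332 and 83 with pseudocounts of 0.1 and 5, 398 at 1.5 times and 37 at 4 times. It became 1042 against booting only and 321 without D1. With at least 5 FPKM in every drought group, 47 lower and 193 higher loci were left. The rule makes the former low and the latter high in these groups, so this contrast was built in. Both counts with a pseudocount of 0.1 took only loci at 1 FPKM or more in the lowest drought or highest development group. The other alternatives kept both counts within 1.5 times, among them columns rescaled to the same sum (224 higher loci, 218 of them among the 254), the 50 most abundant loci left out of the sums (227, with 223 among the 254) and, added after seeing the data, only ranges with equal numbers of loci in both tables.

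A larger pseudocount shrinks every difference by construction. With a pseudocount of 5, the members called higher became 4 for D2 against D1, 4 for D3 against D2, 4 for D3 against D1, 6 for booting against floral initiation, 10 for milky stage against booting, 1 for soft dough against milky stage and 10 for soft dough against floral initiation. Those called lower became 21 for D3 against D2, 1 for booting against floral initiation, 6 for milky stage against booting, 6 for soft dough against milky stage and 7 for soft dough against floral initiation. With a pseudocount of 0.1, 7 were lower at D2 against D1, 15 at booting against floral initiation, 26 at milky stage against booting and 32 at soft dough against milky stage, and 11 were higher at soft dough against milky stage. With 1 locus per range, 4 were lower at booting against floral initiation. The other counts of members stayed within 1.5 times of those reported. The log2 difference of 18 named members was recomputed with other pseudocounts and scalings, and none changed sign. All 18 have a difference of at least 1 log2 unit by the rule, so this tests little. With a pseudocount of 5, 9 of these 18 no longer met the threshold, 3 with median-of-ratios size factors, and 2 after rescaling columns to equal sums. The depth is unknown, so how far counting noise limits the low loci cannot be given.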
